A study of Mus musculus with 4 samples.

Results

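The genes described here encode structural proteins of the myelin sheath: Mbp, Mog, Mag, Mobp, Cnp, Cldn11, Mal and Opalin, which are 8 of the 32285 genes counted. They were chosen as a list by name and not by a cut on their values, but with earlier results of these data known. Their unique molecular identifiers (UMIs) were summed per library over each main cluster of nuclei that the authors annotated. The data are single-nucleus RNA sequencing of the hypothalamus of adult male mice on the C57/BL6NCr background, either wild type or heterozygous for the R384C mutation of the thyroid hormone receptor TRα1 (TRα1+m), a change that lowers the affinity of the receptor for its hormone. The labels name no treatment of these mice. There were 4 libraries, since both genotypes were prepared once in each of 2 repeats, and each library pooled nuclei of 3 mice, which gives n = 2 libraries per genotype. Individual mice cannot be separated within a pool.

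Myelin is the compacted membrane that oligodendrocytes wrap around axons, and these genes are switched on as oligodendrocyte progenitor cells (OPCs) mature. Mbp and Mobp hold the cytoplasmic membrane faces together, Mag faces the axon, Mog lies on the outer surface, and Cldn11 forms the tight junctions between the turns of membrane. Thyroid hormone is a known driver of oligodendrocyte maturation, and Mbp is a classical hormone-responsive gene.

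Libraries held 47260127 to 59112785 UMIs in annotated nuclei, of which 2525236 to 2713480 lay in 1396 to 1685 oligodendrocyte nuclei. The median UMI number of oligodendrocyte nuclei was 1493 (wild type) and 1516 (TRα1+m) for repeat 1, and 1811.5 and 1663 for repeat 2. Of 56077 distinct barcodes, 309 occurred in more than 1 library. Levels are given as CPM (UMI counts scaled to a common total), relative to all UMIs of the cluster in that library, introns included, and are compared between libraries or clusters and not between genes. The authors named the oligodendrocyte cluster with Mag and Mobp, and all genes could enter their clustering, so differences between clusters are description without a test.

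On the build GRCm38, Mog lies on chromosome 17 from 37010743 to 37023398, Mag on chromosome 7 from 30899176 to 30914873, Mobp on chromosome 9 from 120149707 to 120181484 and Cnp on chromosome 11 from 100574904 to 100591729. Cldn11 lies on chromosome 3 from 31149920 to 31164324, Mal on chromosome 2 from 127633226 to 127656695 and Opalin on chromosome 19 from 41061710 to 41077113. Annotated exons made up between 11.8% of the span (Mal) and 25.9% (Mag), so most of each span is intron.

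The 250 bases before their transcription starts were searched on both strands in RefSeq windows (GRCm38.p6), which 7 of the genes had, with 9 windows in all. The thyroid hormone receptor half-site AGGTCA and the direct repeat of this half-site spaced by 4 bases had no match in these windows, and 14.0% and 0.0154% of the 32536 promoters of the table held them. The core motif of Myrf, the transcription factor that switches on myelin genes, was searched as CTGGCAC and CTGGTAC, which occurred in 4.21% and 1.82% of all promoters. It matched in windows of Mag, Cnp and Mog, printed here on the gene strand with the motif in capitals, and in none of Mal, Cldn11, Opalin and Mobp.
Mag, chr7:30914916-30914939, minus strand: ggcggcccCTGGCACccagggggc
Cnp, chr11:100574850-100574873, plus strand: gctgcttcCTGGCACtcaggtttc
Mog, chr17:37023466-37023489, minus strand, motif on the opposite strand: aatgcccaGTACCAGgcagccact
A match describes letters in the window and is not a bound site.

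In oligodendrocytes the largest differences in these genes were between the repeats and not between the genotypes. Mal, a proteolipid of myelin membrane rafts, had 447 and 1796 CPM in wild-type repeats 1 and 2, and 372 and 2601 CPM in the TRα1+m repeats. Both libraries of repeat 2 thus lay far above both of repeat 1. In edgeR, with the genotype in the model, Mal was 5.25-fold higher in repeat 2 (log2 fold change 2.39 ± 0.18 SE, adjusted p = 3.5e-17), and only 4 of the 12630 genes tested had a larger rise. Its rise was log2 1.95 in the wild type and 2.84 in TRα1+m, a wider gap than this SE. The adjusted p of Mal reached 0.0056 among the alternative edgeR and DESeq2 fits.

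Cldn11, the tight-junction claudin of myelin, followed the same pattern. It had 403 and 1423 CPM in wild-type repeats 1 and 2, and 364 and 1573 CPM in the TRα1+m repeats. The rise in repeat 2 was 3.87-fold (log2 1.95 ± 0.17 SE, edgeR adjusted p = 2.2e-16). Genotypes overlapped fully for both genes, while repeats were separate.

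Mag and Mog, the glycoproteins at the inner and outer face of the sheath, rose less. Mag had 742 and 1426 CPM in wild-type repeats 1 and 2 and 679 and 1659 CPM in the TRα1+m repeats, a 2.15-fold rise (log2 1.10 ± 0.16 SE, edgeR adjusted p = 1.6e-07). Mog had 730 and 1104 CPM in the wild-type and 569 and 1150 CPM in the TRα1+m repeats, a 1.73-fold rise (log2 0.79 ± 0.16 SE, edgeR adjusted p = 0.000157). For each gene the lower library of repeat 2 exceeded the higher library of repeat 1.

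Cnp, the phosphodiesterase of non-compact myelin, had 175 and 325 CPM in wild-type repeats 1 and 2, and 158 and 381 CPM in the TRα1+m repeats, a 2.10-fold rise (log2 1.07 ± 0.16 SE, edgeR adjusted p = 1.6e-07). Opalin, a transmembrane glycoprotein of oligodendrocytes, had 304 and 489 CPM in the wild-type and 354 and 561 CPM in the TRα1+m repeats, a 1.58-fold rise (log2 0.66 ± 0.16 SE, edgeR adjusted p = 0.00139). These were the smaller of the called rises together with Mog.

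The genes for the membrane-compacting proteins did not pass the test between repeats. Mbp had 2143 and 2224 CPM in wild-type repeats 1 and 2, and 2058 and 2587 CPM in the TRα1+m repeats (log2 0.18, 95% interval -0.15 to 0.51, adjusted p = 0.573). Mobp had 819, 827, 829 and 898 CPM in the same order of libraries (log2 0.05, interval -0.26 to 0.37, adjusted p = 0.896). The intervals leave room for rises of up to 1.42-fold in Mbp and 1.29-fold in Mobp.

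**Figure D1:**
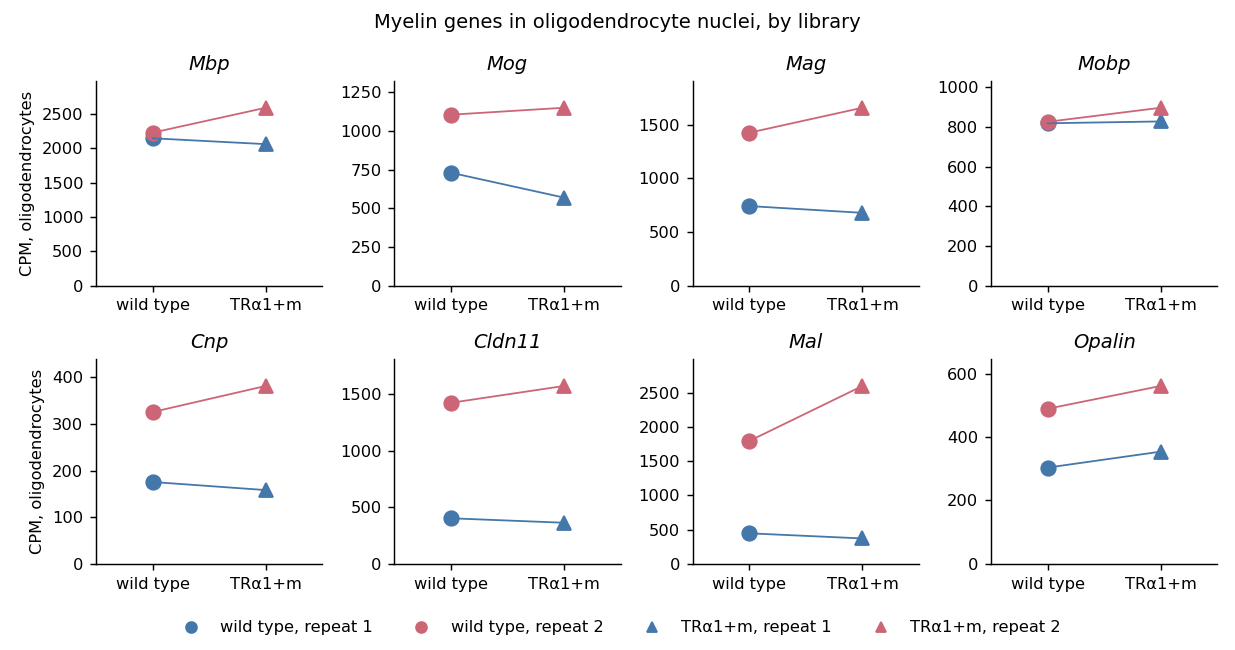
CPM of each gene in oligodendrocyte nuclei on linear axes that start at 0, with 1 point per library, circles for wild type, triangles for TRα1+m, and a line joining the libraries of a repeat. The repeats lie furthest apart for Mal, with means of 410 CPM in repeat 1 and 2198 CPM in repeat 2. For Mbp they lie close together in the wild type (2143 and 2224 CPM) and less so in TRα1+m (2058 and 2587 CPM). For Mobp the libraries of the repeats overlap.

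In all, 6 of the 8 genes passed an adjusted p of 0.05 between repeats in oligodendrocytes, each of them higher in repeat 2. Over all genes tested 12.4% passed, with 5.15% higher in repeat 2. The median log2 change was 0.93 over the 8 genes and 0.012 over all genes. DESeq2 called the same number of members, 6, against 2.61% of all genes. An edgeR fit without the genotype term called 4, in which Mog (adjusted p = 0.0750) and Opalin (adjusted p = 0.113) did not pass. The mice, the preparation of nuclei and the sequencing of a repeat cannot be told apart in this design.

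Some markers of other cells and RNA measures also differed between repeats in the oligodendrocyte sums, and others did not. The 4 astrocyte markers Agt, Aqp4, Slc1a2 and Slc1a3 were all detected and summed to 702 and 955 CPM in the wild-type and TRα1+m libraries of repeat 1, and to 566 and 547 CPM in repeat 2. Of the 3 markers of newly formed oligodendrocytes, Enpp6 had 81.4 and 103 CPM in repeat 1 and 127 and 188 CPM in repeat 2. Gpr17 had 9.65 and 6.65 CPM in repeat 1 and 9.21 and 4.36 CPM in repeat 2, and Bmp4 stood at 0 to 1.19 CPM, so the higher level in repeat 2 was that of Enpp6 alone. Malat1, a nuclear RNA, had 58649 and 30005 CPM in wild-type repeats 1 and 2 and 95060 and 70617 CPM in the TRα1+m repeats. It was lower in repeat 2 within each genotype, but TRα1+m repeat 2 lay above wild-type repeat 1. The neuronal markers Snap25, Syt1, Slc17a6 and Gad1 summed to 782 and 761 CPM in the wild-type and TRα1+m libraries of repeat 1, and 810 and 537 CPM in repeat 2. Mitochondrial genes summed to 23118 and 19660 CPM, and 24446 and 17884 CPM. The repeats overlapped in both sums, but single neuronal markers differed. Syt1 had 285 and 324 CPM in repeat 1 and 211 and 131 CPM in repeat 2. Slc17a6 was also lower in repeat 2 (91.4 and 76.9, then 68.5 and 43.2 CPM). Gad1 was higher (65.6 and 63.2, then 81.4 and 85.1 CPM), and Snap25 overlapped (340 and 297, then 450 and 278 CPM). The part of these markers and RNA measures in the differences between repeats was not tested.

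The share of nuclei with a UMI differed between repeats in the same genes. Each nucleus was thinned at random to 900 UMIs so that depth was equal, and nuclei with at least 1 UMI of a gene were counted. Mal was detected in 30.8% and 26.8% of oligodendrocyte nuclei in the wild-type and TRα1+m libraries of repeat 1, and in 74.7% and 84.2% in repeat 2. Cldn11 was detected in 30.5% and 25.1% in repeat 1 and 69.8% and 72.5% in repeat 2.

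Mobp, by contrast, was detected in 48.0% to 52.0% of these nuclei in the 4 libraries, and Mbp in 81.6% to 87.3%. A thinned nucleus held a mean of 3.22 and 3.05 of the 8 genes in repeat 1 and 4.67 and 4.97 in repeat 2. In Neurons_1, 2.3% to 3.6% of thinned nuclei had a UMI of Mal and 14.5% to 20.6% one of Mbp. The median whole Neurons_1 nucleus held 3797 to 5227 UMIs.

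**Figure D2:**
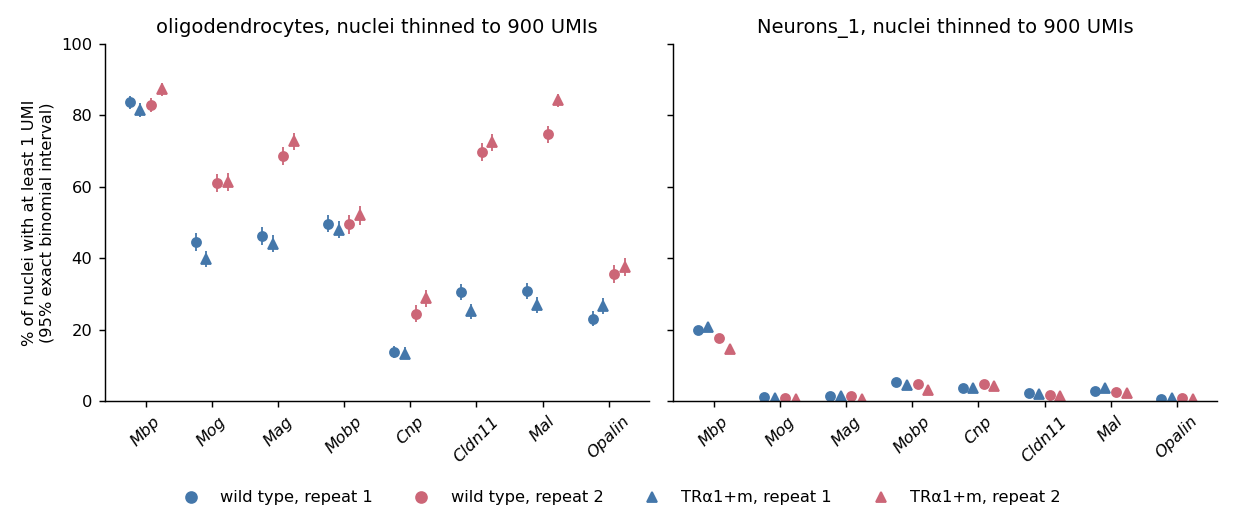
Share of oligodendrocyte (left) and Neurons_1 (right) nuclei with at least 1 UMI of each gene after thinning to 900 UMIs, by library, with 95% exact binomial intervals that cover counting error only. In oligodendrocytes Mal and Cldn11 lie at 25.1% to 30.8% in repeat 1 and 69.8% to 84.2% in repeat 2, while Mobp lies within 48.0% to 52.0%.

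Between the genotypes none of the 8 genes passed the test in oligodendrocytes in edgeR (0 of 8, also 0 at an unadjusted p of 0.05, and 0 in DESeq2). Of all 12630 genes 0.103% passed, 13 in number, and 672 had an unadjusted p under 0.05. Estimates were 0.50 for Mal, 0.17 for Cldn11, 0.19 for Mag, 0.19 for Cnp, 0.28 for Opalin and -0.02 for Mog on the log2 scale, all with an adjusted p of 0.999. The interval for Mal ran from -2.14 to 3.14, so that neither a large rise nor a large fall could be seen at this spread.

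Mbp and Mobp, the members with the smallest change between repeats, gave the tightest estimates. Mbp was 1.11-fold the wild-type level (95% interval 0.846 to 1.47) and Mobp 1.10-fold (0.854 to 1.41). With the repeat as a block the intervals narrowed to 0.913 to 1.47 for Mal and 0.839 to 1.31 for Cldn11. Still 0 of 8 genes were called, while 4.35% of all genes were. The widths of these block intervals rest largely on a spread shared over genes. For Mal the ratios within repeats 1 and 2, 0.845 and 1.56, both lay outside its block interval, while those for Cldn11, 0.916 and 1.19, lay inside. An exact permutation test of 2 against 2 libraries cannot go below p = 0.333.

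Within repeat 1, TRα1+m was below wild type for 6 of the 8 genes, with ratios of 0.791 to 1.18. Within repeat 2 it was above wild type for 8 of 8, with ratios of 1.12 to 1.56, the highest being Mal. The difference between the repeats in these oligodendrocyte ratios was not tested, since a fit with it leaves no residual degrees of freedom. In Neurons_1, 0 of 8 lay above wild type in repeat 2, with ratios of 0.604 to 0.927. There were 5 in astrocytes, 6 in OPCs and 2 in microglia with macrophages. The share of all genes above wild type within a repeat is not given here. For 7 of the 8 genes the sign of the oligodendrocyte estimate turned with the library left out, the exception being Mobp (log2 0.053 to 0.21). These fits held no repeat term, and each left 1 genotype with only 1 repeat. Their estimates thus take in part of the difference between repeats. Without wild-type repeat 2 or TRα1+m repeat 1 the Mal estimate was positive, up to 1.79, and without wild-type repeat 1 or TRα1+m repeat 2 it was negative, down to -1.53 on the log2 scale.

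**Figure D3:**
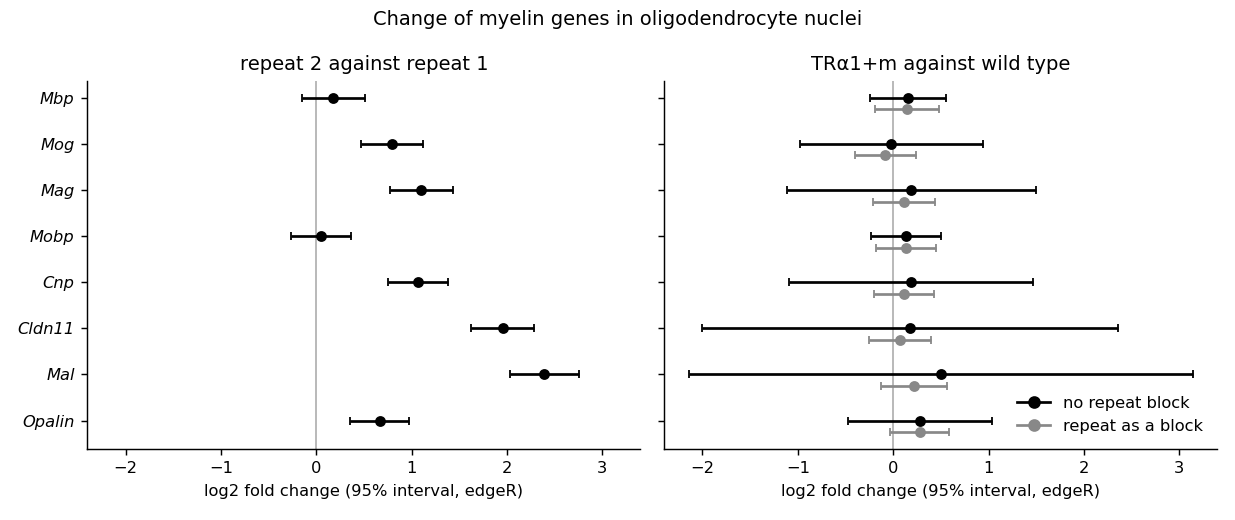
Log2 fold changes with 95% intervals from edgeR in oligodendrocytes, for repeat 2 against repeat 1 (left, genotype in the model) and for TRα1+m against wild type (right, black without and grey with the repeat as a block). The left intervals of 6 genes exclude 0, up to 2.39 for Mal, and on the right every interval includes 0.

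The other annotated clusters held these transcripts at lower levels. For Mog, Mag and Opalin a mean of 77.6%, 74.2% and 69.4% of the UMIs lay in oligodendrocytes over the 4 libraries, and their level in Neurons_1 was 1.1%, 1.4% and 1.8% of that in oligodendrocytes. For Cldn11 and Mal these means were 61.2% and 57.4%, but they join unlike repeats: Cldn11 had 42.6% to 47.4% in repeat 1 and 73.2% to 81.4% in repeat 2, and Mal 32.2% to 40.2% and 75.0% to 82.1%. In both libraries of repeat 2 Cldn11 and Mal stood above Opalin (70.8% and 79.4%), and in repeat 1 below it. Mobp had 44.4%, Mbp 32.2% and Cnp 21.9% of their UMIs in oligodendrocytes, and Neurons_1, which holds most nuclei, had 38.0%, 47.7% and 54.4%. Cnp stood at 16.2% of its oligodendrocyte level in Neurons_1 and 39.3% in astrocytes.

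**Figure D4:**
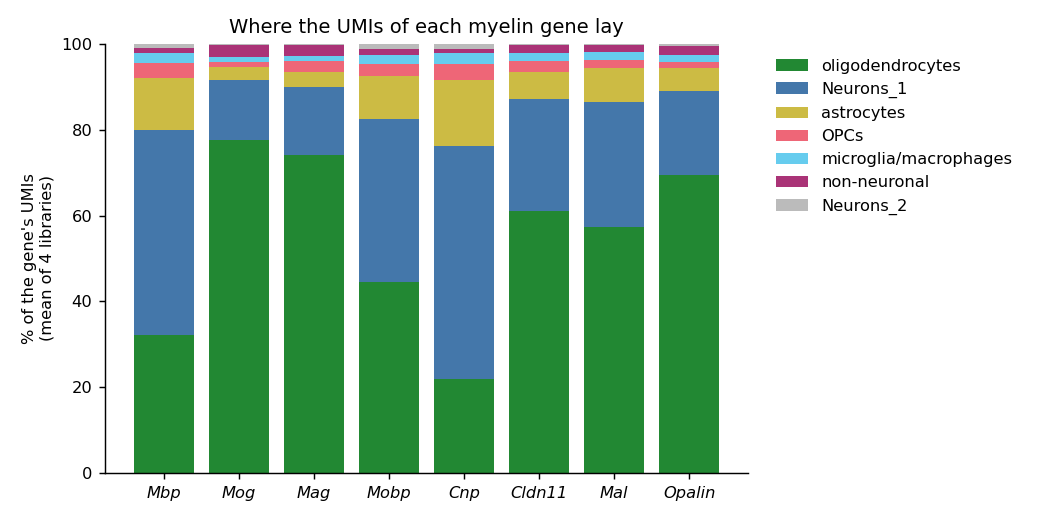
Share of the UMIs of each gene that lay in each main cluster, as the mean of the 4 libraries, stacked to 100%. Oligodendrocytes hold the largest part for Mog (77.6%) and the smallest for Cnp (21.9%).

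In every one of the 8 genes the mean level was highest in oligodendrocytes, followed by the non-neuronal cluster. Mbp had a mean of 2253 ± 233 CPM (SD, n = 4) in oligodendrocytes, 460 ± 78.4 CPM in astrocytes and 209 ± 38.7 CPM in Neurons_1. OPCs had 369 to 555 CPM and microglia with macrophages 467 to 664 CPM, ranges that overlap with each other and with the astrocytes. Mog lay between 569 and 1150 CPM in oligodendrocytes, 19.8 to 36.2 CPM in OPCs and 5.9 to 11.7 CPM in Neurons_1. The non-neuronal cluster, which the labels leave without a cell type, stood at 48.2% to 59.2% of the oligodendrocyte level for the 8 genes. It held 34 to 80 nuclei per library. The authors report that it shared many genes with both astrocytes and oligodendrocytes and had higher doublet scores. They call such doublets unlikely in nuclei but set the cluster aside.

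The make-up of the myelin UMIs in oligodendrocytes was set beside that in Neurons_1, astrocytes and the non-neuronal cluster. Mbp made up 22.7% to 38.2% of the UMIs of the 8 genes in oligodendrocytes, but 54.7% to 59.8% in Neurons_1 and 52.4% to 59.2% in astrocytes. Mal made up 6.9% to 22.8% in oligodendrocytes, with its repeat 1 values inside the Neurons_1 range of 6.5% to 7.9%. Mog made up 10.1% to 12.7% in oligodendrocytes and 2.0% to 2.9% in Neurons_1. Mobp made up 14.2% and 15.4% in oligodendrocytes of wild type and TRα1+m in repeat 1, and 8.6% and 7.9% in repeat 2. Its Neurons_1 range of 11.4% to 13.3% lay between the values of the 2 repeats. The non-neuronal cluster lay close to the oligodendrocytes, with a mean of 32.2% for Mbp (30.3% in oligodendrocytes), and 10.8% to 15.0% for Mog and 6.6% to 19.7% for Mal.

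**Figure D5:**
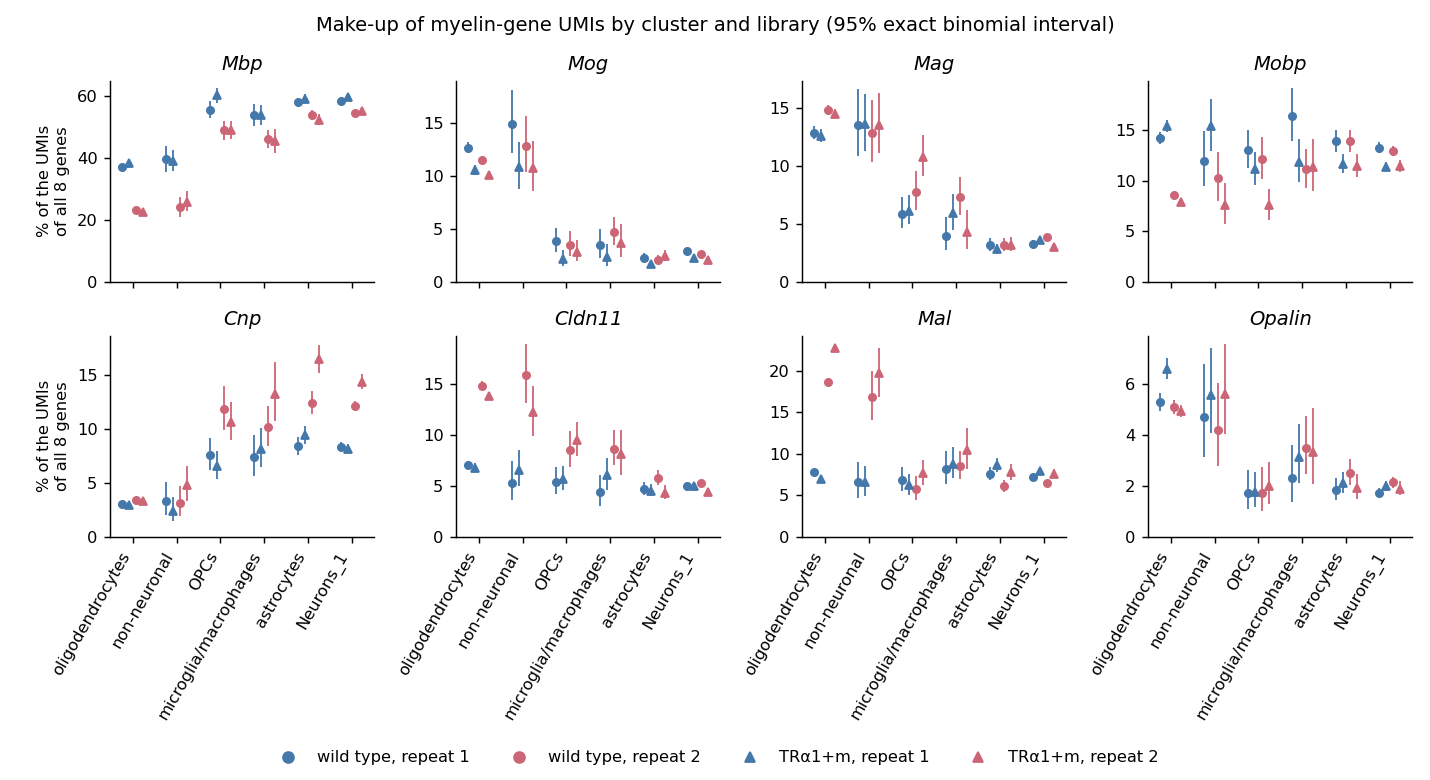
Share of each gene among the UMIs of the 8 genes, by cluster and library, with 95% exact binomial intervals that cover counting error only. Mal reaches 22.8% in oligodendrocytes of repeat 2 and lies at 6.5% to 7.9% in Neurons_1.

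Outside oligodendrocytes most of the called genes were lower in repeat 2. In Neurons_1, 5 of 8 genes were called between repeats, where 25.2% of all genes were called: Mbp, Mobp, Mal and Mog were lower in repeat 2 (log2 -0.47, -0.38, -0.47 and -0.51) and Cnp higher (0.31). DESeq2 called 2 of 8 there, with neither of them higher in repeat 2, against 13.3% of all genes. In astrocytes 4 of 8 were called, against 20.6% of all genes, with Mbp, Mobp and Mal lower (-0.46, -0.33 and -0.55) and Cnp higher (0.37). There DESeq2 called 0 of them, against 4.63% of all genes. In OPCs 2 of 8 were called, against 11.4% of all genes, Mbp and Mobp, both lower (-0.47 and -0.56). Again DESeq2 called 0, against 1.32% of all genes. In microglia with macrophages 0 of 8 were called by edgeR, against 6.27% of all genes, and 0 by DESeq2, against 1.1%. At an unadjusted p under 0.05 edgeR had 2 of 8 members and 1747 of all 10451 genes. DESeq2 had 0 of 8 members and 391 genes at that threshold.

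Whether the repeat effect differed between oligodendrocytes and another cluster was tested as an interaction, added after the data had been seen. Mal and Cldn11 rose more in oligodendrocytes than in each of Neurons_1, astrocytes, OPCs and microglia with macrophages, by 2.34 to 3.00 for Mal and 1.35 to 2.39 for Cldn11 on the log2 scale. The Cldn11 call against microglia was lost in DESeq2, in the bias-adjusted fit and without wild-type or TRα1+m repeat 1, and that against OPCs in thinned nuclei and without TRα1+m repeat 1. Against Neurons_1, 4 of 8 genes were called, where 2.45% of all genes were, and against astrocytes 4 of 8, where 1.01% were. Against OPCs and microglia 2 of 8 were called, where 0.958% and 0.509% of all genes were.

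Between genotypes, edgeR called 0 of 8 genes in Neurons_1, astrocytes, OPCs and microglia with macrophages, as did DESeq2, and none had an unadjusted p under 0.05. In these clusters edgeR called 0.0% of all genes, with 185 to 255 genes at an unadjusted p under 0.05, and DESeq2 called 0 or 1 gene. With the repeat as a block, still 0 of 8 genes were called, where 0.01%, 1.28%, 0.569% and 0.335% of all genes were, in the order above. With the block 2 of 8 had an unadjusted p under 0.05 in each of Neurons_1, astrocytes and OPCs, and 0 in microglia. Over all genes 1583 of 19926, 1475 of 14797, 861 of 11248 and 634 of 10451 had such a p in the same order. The genotype effect did not differ detectably between oligodendrocytes and Neurons_1 for any of the 8 genes (0 called in edgeR and DESeq2, 0 at an unadjusted p of 0.05), where 0.0321% of all genes were called. With the repeat as a block 0 of 8 were called and 0.294% of all genes. These interaction fits held no library term, so the 2 sums of a library were treated as separate. A fit with a library term also called 0 of 8.

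A further 22 genes of myelin and its lipids were followed in oligodendrocytes. Between repeats 12 rose in repeat 2 and 1 fell, where 5.15% of all genes were called higher and 12.4% called in either direction. The rises included those of Pllp, a membrane proteolipid related to Mal (4.08-fold), Cd9, a tetraspanin (3.98-fold), and Cers2, which makes the long-chain ceramides of myelin (3.28-fold). Gjb1, Cmtm5, Cntn2, Tspan2, Jam3, Nfasc, Fa2h and Gal3st1 rose by 1.43-fold to 2.24-fold.

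Sox10, the transcription factor that keeps oligodendrocyte identity, was the gene that fell, from 190 to 101 CPM in the wild type and from 170.0 to 102 CPM in TRα1+m (log2 -0.84). Myrf, its target and the activator of myelin genes, had 122, 159, 155 and 169 CPM in wild-type repeats 1 and 2 and TRα1+m repeats 1 and 2 and did not pass (edgeR adjusted p = 0.354); it is named here, with its values already seen, because its motif was searched. Gjc3, Ugt8a, Aspa and Ermn did not pass either (log2 -0.41, 0.34, -0.0040 and 0.051). Between genotypes 0 of the 22 passed in edgeR and in DESeq2. With the repeat block, Nfasc and Gal3st1 were higher in TRα1+m (log2 0.66 and 0.75) and Pllp lower (0.501-fold).

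Across the 20 sums of 5 clusters and 4 libraries, genes whose log2 levels closely resembled the mean of the 8 were Erbin (Pearson r 0.983), Tnfaip6 (0.981), Anln (0.978) and Secisbp2l (0.977), of 3896 genes compared. These sums share libraries and clusters, so the correlations are a description of which genes are concentrated in oligodendrocytes.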

How the data were processed

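Nuclei of snap-frozen hypothalamus were profiled on the 10x Genomics platform. The authors counted UMIs per gene and nucleus with Cell Ranger 5.0.1, introns included, on mm10, removed low-quality nuclei and predicted doublets, and clustered in Seurat, per the labels and the paper. The deposited values are raw whole-number counts, and the deposited annotation gives each kept nucleus its genotype, repeat, cluster and sub-cluster; doublets and clusters were not recomputed.

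Counts were summed per library and cluster and tested with edgeR 4.0.16 in R 4.3.3 (filterByExpr, TMM, robust two-sided quasi-likelihood F-tests, Benjamini-Hochberg over all genes, adjusted p of 0.05), by genotype without a block, leaving 2 residual degrees of freedom, and by repeat with the genotype in the model, leaving 1. The SE is the one implied by the F-test. Clusters tested were 5 of the 7. Neurons_2 and the non-neuronal cluster were not tested, since the authors set them aside. Neurons_2 had 852 nuclei in TRα1+m repeat 2, but 6 in TRα1+m repeat 1 and 5 and 1 in wild-type repeats 1 and 2. The study assigns 1 library of each genotype to each repeat, and differences between repeats correlated between genotypes (r 0.541 in oligodendrocytes), so the repeat was also fitted as a block. DESeq2 1.42.0, RLE factors, library totals, no filter, a bias-adjusted fit, nuclei thinned to 900 UMIs and each library left out were alternatives. On simulated oligodendrocyte counts the genotype fit recovered 16.9% of 2-fold and 90.2% of 4-fold changes. The simulated counts took their spread from a trend over all genes and held no difference between repeats. They thus do not give the recovery for genes that differ between repeats as Mal and Cldn11 do. Intervals on shares are exact binomial, from scipy 1.17.1 in Python 3.11.15.

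Named genes were the 8 members, those of the 22 further genes that passed with a few more in list order, and the 5 most alike; some items these rules name are not reported here. The members and lists were chosen with earlier results of these data known. The unit compared is the pool of 3 mice. By repeat or with the block, 1 residual degree of freedom remains, and the oligodendrocyte SE lay between 0.15 and 0.19 for all 22 further genes. Those p-values and intervals thus rest largely on a spread shared over genes, and less on each gene's own spread between pools.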

Additional observations from a re-analysis of the deposited data

Results flagged for a closer look

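The repeat effect on 5 of the genes differed between oligodendrocytes and other clusters in an interaction test in edgeR that was added after the data had been seen. For Mal the rise from repeat 1 to repeat 2 was larger in oligodendrocytes by 2.90 (log2) than in Neurons_1, by 3.00 than in astrocytes, by 2.64 than in OPCs and by 2.34 than in microglia with macrophages, with adjusted p of 6.2e-05, 1.3e-05, 8.6e-08 and 0.000101. For Cldn11 it was larger by 2.39, 2.19, 1.51 and 1.35 in the same order, with adjusted p of 0.000408, 0.000189, 0.000278 and 0.0301. For Mog it was larger by 1.33 than in Neurons_1 (adjusted p = 0.0130) and by 0.97 than in astrocytes (adjusted p = 0.0256). For Cnp it was larger by 0.80 than in Neurons_1 (adjusted p = 0.0108), and for Mag by 1.37 than in astrocytes (adjusted p = 0.00251). The number of calls depended on the fit. Against Neurons_1 the main fit called 4 of 8 genes, DESeq2 5 and the bias-adjusted fit 2. Against astrocytes the main fit called 4 and DESeq2 3. Over all genes the main fit called 2.45% and 1.01% in these comparisons, and DESeq2 1.49% and 0.544%.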

How the results depend on the processing

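Between genotypes, 0 of the 8 genes were called in each of the 5 clusters under every alternative run. The count over all genes in oligodendrocytes moved from 13 to 74 in DESeq2, 120 without the filter, 21 in thinned nuclei and 550 with the repeat as a block, and ranged from 0 to 196 with a library left out (6 without wild-type repeat 1, 0 without wild-type repeat 2, 196 without TRα1+m repeat 1 and 59 without TRα1+m repeat 2). The block changed no call of a member. Leaving out a library gave log2 estimates of -0.042 to 0.32 for Mbp, -0.64 to 0.41 for Mog, -0.62 to 0.71 for Mag, 0.053 to 0.21 for Mobp, -0.61 to 0.69 for Cnp, -1.27 to 1.32 for Cldn11, -1.53 to 1.79 for Mal and -0.11 to 0.64 for Opalin. These fits held no repeat term, so their estimates take in part of the difference between repeats. The sign of Mog turned in thinned nuclei (0.0091), and that of Mobp (-0.11) in nuclei without Slc1a2, Slc1a3, Syt1 or Snap25, a choice made after the data had been seen. Between repeats, leaving out a library could not be fitted, since no residual degrees of freedom remain. All genes called in oligodendrocytes moved from 1568 to 330 in DESeq2 and 344 without the genotype term. Members called moved in Neurons_1 from 5 to 2 in DESeq2 and 3 without the genotype term, in astrocytes from 4 to 0, 1 and, in thinned nuclei, 2, and in OPCs from 2 to 0, 1 and, with library totals, 4. In DESeq2 the share called over all genes was lower too, at 13.3%, 4.63% and 1.32% in these clusters, from 25.2%, 20.6% and 11.4% in edgeR. For the other settings of these clusters the share over all genes is not given here. For the difference of the repeat effect, members called were 7, 7 and 5 without the filter against Neurons_1, astrocytes and OPCs, 2 and 1 in the bias-adjusted fit against Neurons_1 and microglia, 1 in DESeq2 against microglia and 1 in thinned nuclei against OPCs, the lost call being Cldn11 in each of these against microglia or OPCs. DESeq2 called 0.225% of all genes against microglia. For the other settings of this interaction just named the share over all genes is not given here, so their counts cannot be set against it. The number of members called also changed with a library left out, in fits that leave 1 library in a repeat. The cause of these changes was not tested. On depth, Mog rests on 149 UMIs over the 4 OPC sums and 9331 over the oligodendrocyte sums.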

Other observations

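In the OPC cluster the UMIs of Mog, Mag, Mal, Cldn11 and Opalin were unevenly spread over nuclei. Nuclei with at least 5 such UMIs numbered 11 of 531 and 11 of 422 in wild-type repeats 1 and 2, and 10 of 679 and 22 of 478 in the TRα1+m repeats, and they held 29.4%, 57.6%, 27.3% and 68.3% of these UMIs in the cluster. Of them 5, 4, 6 and 14 had a UMI of Enpp6, a marker of newly formed oligodendrocytes, against 16, 14, 30 and 25 nuclei of the whole cluster. Gpr17, another marker of newly formed oligodendrocytes, had a UMI in 1, 5, 3 and 13 of them, against 131, 246, 198 and 274 nuclei of the whole cluster, and Bmp4 in 0, 3, 1 and 3, against 9, 10, 10 and 7. Pdgfra, a marker of OPCs, had a UMI in 6, 5, 1 and 7 of them, against 385, 369, 492 and 418. These nuclei were deeper than the cluster, with a median of 5130, 4729, 3172.5 and 3692 UMIs against 2376, 2984, 2221 and 2594, and the part of depth in these counts was not tested. Nuclei with at least 5 such UMIs occurred in other clusters too. In the same order of libraries they held 14.4%, 57.5%, 16.8% and 33.5% of these UMIs in microglia with macrophages. They held 7.8%, 25.8%, 8.6% and 10.3% in Neurons_1, and 3.7%, 15.2%, 1.4% and 21.5% in astrocytes.

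Within Neurons_1 the annotated sub-clusters #11 and CART Neurons_2 stood apart, with a mean of 204 ± 51.3 and 233 ± 53.1 CPM of Mog (SD, n = 4), while the other neuronal sub-clusters had 4.62 to 18.7 CPM. Mal had 341 ± 327 CPM in #11 and 237 ± 172 CPM in CART Neurons_2. The Mog means rest on 319 UMIs in #11 and 44 in CART Neurons_2 over the 4 libraries, and those of Mal on 308 and 68. The authors describe CART Neurons_2 as small. These sub-clusters were set by clustering on the same counts, so the values are a description.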
